A study of Arabidopsis thaliana with 15 samples.

Results

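Endodermis and stele meet at the inner boundary of the root, and the 3 arrays of endodermis cells were compared with the 3 arrays of stele cells, 6 of the 15 arrays of the series. Arrays entered a group by their title. All cells came from Columbia seedlings of Arabidopsis thaliana that carried a green fluorescent protein marker. They were grown for 5 days and then held for 3 h on medium lacking sulfur, and root cells were released as protoplasts and sorted by fluorescence. The endodermis line was pSCR::GFP, whose promoter is also active in the quiescent center, and the stele line was pWOL::GFP. The other populations were columella, epidermis and cortex, with 3 arrays each, and arrays from roots on complete medium were not analysed here, so both groups share the sulfur treatment. No label says that the 3 replicates of a population were grown apart, so the spread behind each p-value may be technical.

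The endodermis is the innermost ground tissue layer of the root. Its cells seal the space between them with the Casparian strip, a ring of lignin laid down by peroxidases and dirigent proteins under the control of the receptor kinase SGN3, and later coat themselves with suberin. The stele is the cylinder inside that layer and holds the pericycle, the xylem, the phloem and the dividing cells that give rise to them.

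Arrays were read as the signal of each Affymetrix probe set, a linear intensity without unit, and differences are given as endodermis minus stele on the log2(signal + 16) scale with the standard error (SE), which understates changes of dim probe sets. Median signal was 57.4, 60.8 and 58.1 on endodermis replicates 1, 2 and 3 and 56.5, 77.3 and 76.3 on stele replicates 1, 2 and 3. Across the 14958 tested probe sets, which are not independent of each other, the endodermis arrays correlated best with each other, with r = 0.984 between replicates 1 and 3 and 0.945 between replicates 2 and 3. The array labelled stele replicate 1 lay nearest to an epidermis array (r = 0.967) and reached 0.829 with its own group. Stele replicate 2 correlated at 0.955 with stele replicate 3 and at 0.969 with the array labelled epidermis replicate 2. The ratio of the 3' to the 5' GAPDH probe set, a measure of transcript length in the labelled RNA, was 4.97, 11.3 and 5.44 on the endodermis arrays and 9.20, 13.5 and 12.8 on the stele arrays, so it was lower on endodermis replicates 1 and 3 than on every stele array. The actin ratio gave another order, with 105, 123 and 95.3 on the endodermis arrays and 63.5, 123 and 310.5 on the stele arrays, and the part of either in the results was not tested. Every comparison was therefore made with all 6 arrays and again with 5 arrays, without stele replicate 1.

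Markers separated the groups on the endodermis side in both comparisons. SGN3 read 3449, 3224 and 3942 on the endodermis arrays and 18.5, 232 and 102 on the stele arrays, without overlap. In cortex it read 1124, 1421 and 1367, above every stele array, so its signal was not confined to the endodermis. PHV, an HD-ZIP III transcription factor of the vascular cylinder, read 49.9, 98.6 and 64.7 in endodermis and 6.46, 383 and 552 in stele. LHW, a bHLH factor that starts the divisions of vascular cells, read 363, 699 and 488 in endodermis and 295, 995 and 1357 in stele. PHV and LHW both read at least 149.9, 120.6 and 159.6 on columella replicates 1, 2 and 3. PHV was therefore above all 3 endodermis arrays in columella too, so its signal was not confined to the stele. On the array labelled stele replicate 1 both stele markers were thus below all 3 endodermis arrays, while stele replicates 2 and 3 were above them, so that array went against its label. The marker line genes themselves, SCR and WOL, and the CASP genes and MYB36 are unnamed here and were not used.

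With all 6 arrays, 1213 probe sets (8.11% of those tested) were higher in endodermis and 1168 (7.81%) were higher in stele, at a limma adjusted p under 0.05 and a difference of at least 1 log2. With 5 arrays the counts were 1653 (11.1%) and 2665 (17.8%). Among the 8182 genes with a name, the shares were 7.66% and 8.09% with 6 arrays and 10.4% and 18.3% with 5. On the endodermis side 1157 probe sets were called in both comparisons, 95.4% of the first list and 70.0% of the second, and 496 were called only without stele replicate 1. On the stele side 1115 were called in both, 95.5% of the first list and 41.8% of the second, and 1550 were called only without stele replicate 1. The 6-array counts were 480 and 166 without endodermis replicate 1, 431 and 166 without endodermis replicate 3, 815 and 391 without stele replicate 2 and 812 and 433 without stele replicate 3. The 5-array count of probe sets higher in stele was 1609 without stele replicate 2. The median difference over all tested probe sets was -0.17 with 6 arrays and -0.19 with 5, and gene differences are to be read against it. Of the calls, 50.9% were higher in endodermis with 6 arrays and 58.2% after quantile normalization, and with 5 arrays 38.3% and 49.4%.

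**Figure D1:**
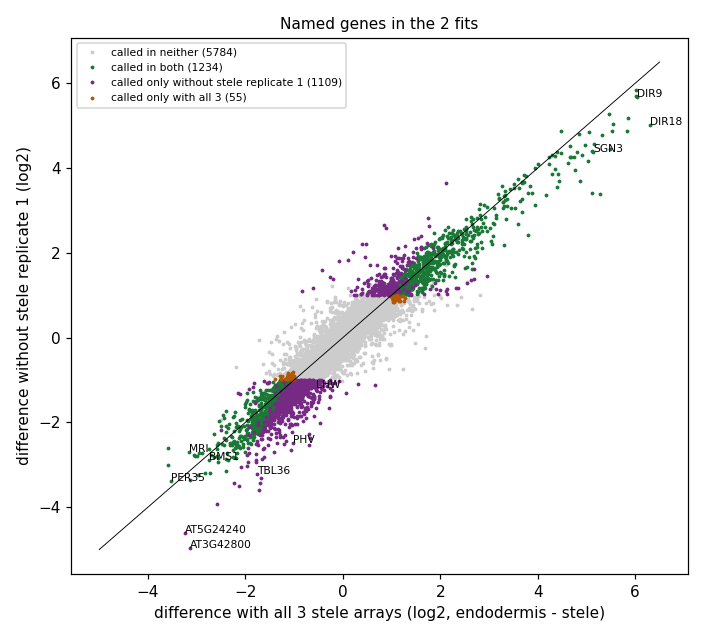
Difference between endodermis and stele (log2, endodermis minus stele) of each named gene with all 3 stele arrays (x axis) and without stele replicate 1 (y axis), coloured by the comparison that called it, with the line of equality. Of the named genes, 1234 were called in both comparisons, 1109 only without stele replicate 1, mostly below 0, and 55 only with all 3 stele arrays.

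The genes with the greatest excess in endodermis included the machinery of the Casparian strip. Of 26 genes listed for it, 8 had a named probe set and all 8 of these passed the filter on low values. With 6 arrays 7 of the 8 were called higher in endodermis and none lower, against 8.11% of all tested probe sets, and with 5 arrays all 8 were, against 11.1%. With all populations in the 5-array fit 5 of the 8 were called, PER39 (adjusted p = 0.0521), PER72 (adjusted p = 0.073) and CIF2 (adjusted p = 0.154) not passing. Their median difference was 5.21 and 4.39, and for each of the 8 the endodermis arrays lay above the 3 stele arrays, as in 17.2% of all tested probe sets, or 23.9% where stele replicates 2 and 3 alone are taken. Without any 1 of the 3 endodermis arrays, 5 of the 8 were called with the stele arrays complete, and without stele replicate 3, 6 were.

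Signalling genes were examined first. SGN3, the receptor kinase that senses gaps in the strip, was higher in endodermis by 5.14 ± 0.63 (SE, n = 3 and 3, limma adjusted p = 0.00267) with 6 arrays and by 4.38 ± 0.32 with 5. SGN1, the cytoplasmic kinase that acts with SGN3, read 3700.4, 3959.7 and 3964 in endodermis and 4.85, 189 and 138 in stele. The groups were far apart, with a difference of 5.48 ± 0.76 with 6 arrays (adjusted p = 0.00424) and 4.45 ± 0.24 with 5. CIF2, which encodes a peptide ligand of SGN3, read 124, 112 and 143 in endodermis and 2.72, 50.6 and 55.8 in stele. Its difference of 1.66 ± 0.51 did not pass the test with 6 arrays (adjusted p = 0.0573), and that of 1.03 ± 0.25 passed with 5 (adjusted p = 0.011). Of the 8 genes it was the one whose signal on stele replicates 2 and 3 came closest to endodermis, at 40.2% and 44.3% of the endodermis mean. The call with 5 arrays was lost without endodermis replicate 3, without stele replicate 2 and without stele replicate 3.

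Dirigent proteins guide the coupling of lignin precursors, and DIR9 and DIR18 stood among the 15 named genes of largest difference. DIR18 read 8638, 8348 and 9837 in endodermis and 2.74, 679 and 94.7 in stele, a difference of 6.30 ± 1.08 (adjusted p = 0.00929) with 6 arrays and 5.01 ± 0.60 with 5. DIR9 read 4938, 3932 and 6049 in endodermis and 28.6, 164 and 35.1 in stele, a difference of 6.05 ± 0.52 (adjusted p = 0.000855) and 5.68 ± 0.46. In both genes the 3 endodermis arrays were high together, and stele replicate 2 held the highest stele value. DIR13 read 2038, 1387 and 3121 against 1.99, 101 and 27.2, and DIR23 read 1565, 1477 and 1578 against 2.50, 73.2 and 20.1. The wider dirigent family, a list added after the data were seen, had 8 tested members of 25, of which 5 were higher in endodermis with 6 arrays and 6 with 5, against 8.11% and 11.1% of all tested probe sets, none being higher in stele. DIR20 was the member called with 5 arrays alone, at 1620.1, 742 and 1671 in endodermis and 28.2, 359 and 445 in stele. It lost that call with all populations in the fit (limma adjusted p = 0.144) and without stele replicate 2. DIR14 (848, 381 and 532 against 3.78, 530.4 and 192) and DIR17 (20.018, 29.8 and 26.3 against 39.974, 40.1 and 51.8) were called in neither comparison, and DIR7 lost its 6-array call without endodermis replicate 1 and without endodermis replicate 3.

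Peroxidases that make the radicals for lignin polymerization followed the same order. PER39 read 8852, 12302 and 10164 in endodermis and 4.08, 983 and 950.3 in stele, and PER72 read 6979, 5225 and 8706 and 2.38, 906 and 432. With 6 arrays the differences were 5.27 ± 1.33 (adjusted p = 0.0335) and 5.12 ± 1.25 (adjusted p = 0.0299), and both calls were lost when any 1 endodermis array was left out, that of PER72 also without stele replicate 3. With 5 arrays they were 3.40 ± 0.21 and 3.41 ± 0.34, smaller but with a smaller SE, since stele replicate 1 held next to no signal for either. PER9 read 4136, 2678 and 4537 in endodermis and 24.4, 207 and 121 in stele, with a difference of 5.11 ± 0.58 (adjusted p = 0.0021) and 4.41 ± 0.32. All 3 peroxidases kept a clear gap between the groups, and PER39 was also present in cortex, at 1113, 1480.3 and 1232.

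**Figure D2:**
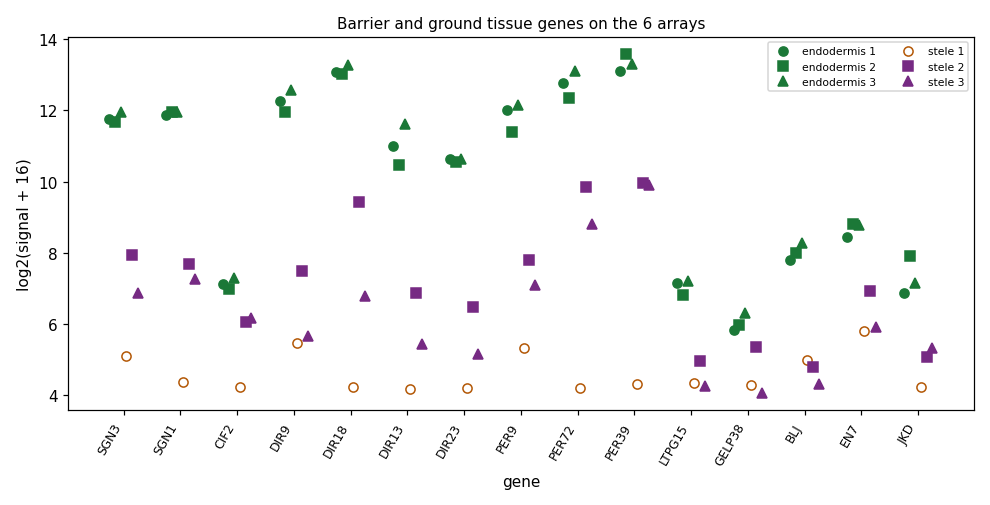
Signal of 15 barrier and ground tissue genes, as log2(signal + 16), on each endodermis array (green) and each stele array (stele replicate 1 open, stele replicates 2 and 3 purple). All endodermis points lie above the stele points of the same gene, and stele replicate 2 lies above stele replicate 3 for most of the barrier genes.

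Barrier transcripts were not at 0 on the stele arrays. The summed signal of the 8 Casparian strip genes was 40815, 39780 and 47342 on the endodermis arrays, 88.3 on stele replicate 1, 3410 on stele replicate 2 and 1928 on stele replicate 3. On stele replicate 2 the 8 genes had a median of 7.07% of their endodermis mean (3.29% to 40.2%), on stele replicate 3 a median of 3.37% (0.707% to 44.3%) and on stele replicate 1 a median of 0.324%. The array labelled epidermis replicate 2 had a summed signal of 5806, against 108 and 147 on the other 2 epidermis arrays. On the cortex arrays the sum was 2571.4, 3328.5 and 2828.6, between stele replicates 2 and 3. Stele replicate 2 exceeded stele replicate 3 in 7 of the 8 genes, CIF2 being the exception. Fewer endodermis cells in a sort and less barrier RNA per stele cell cannot be told apart in these values.

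Later steps of the barrier also differed, though few of their genes could be read. Of 20 suberin genes 2 had a named probe set. Both were higher in endodermis in both comparisons, against 8.11% and 11.1% of all tested probe sets. LTPG15, a lipid transfer protein needed for suberin monomer export, read 126, 97.5 and 131 in endodermis and 4.56, 15.3 and 3.16 in stele, a difference of 2.53 ± 0.30 (adjusted p = 0.00242). GELP38, one of the GDSL-type esterases that join suberin monomers, read 41.2, 46.9 and 63.5 against 3.66, 25.2 and 0.743, a difference of 1.47 ± 0.39 (adjusted p = 0.0388) that was lost under several other settings. HCT, an enzyme of the lignin precursor pathway and the 1 tested gene of 15 listed for it, read 3854, 2819 and 3321 in endodermis and 391, 1295 and 1012 in stele. It was higher in endodermis by 2.02 ± 0.43 (adjusted p = 0.0194), and the 6-array call was lost without endodermis replicate 1 and without endodermis replicate 3. UGT72E3, which attaches glucose to lignin precursors, read 1306, 379 and 1336 against 4.19, 30.9 and 30.1 and was higher in endodermis by 4.66 ± 0.55 (adjusted p = 0.00231).

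Regulators of ground tissue identity were higher in endodermis as well. Of 8 listed genes, 3 were tested, and all 3 were called in both comparisons, against 8.11% and 11.1% of all tested probe sets. BLJ, a zinc finger factor of the ground tissue, read 209, 241 and 293 in endodermis and 15.8, 11.7 and 4.10 in stele, a difference of 3.33 ± 0.29 (adjusted p = 0.000855). JKD, a related zinc finger factor that keeps SHR inside the endodermis, read 101, 226 and 128 against 2.81, 18.1 and 24.009, a difference of 2.44 ± 0.40 (adjusted p = 0.00803). EN7, an endodermis marker gene, read 334, 429 and 422 against 40.4, 106 and 44.2, a difference of 2.45 ± 0.35 (adjusted p = 0.00459). These 3 kept their calls when any 1 array was left out, in both comparisons. In cortex JKD read 149, 142 and 104, within the endodermis range, whereas BLJ read 24.3, 40.2 and 20.8 there, below all 3 endodermis arrays.

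Markers of the cortex, the neighbouring ground tissue layer, were also higher in endodermis than in stele. Of the 1157 probe sets called higher in endodermis in both comparisons, all 3 cortex arrays were above all 3 endodermis arrays in 18.8%, near the 18.4% of all tested probe sets, and below them in 48.1%, against 30.8%. As these probe sets were chosen for a high signal in endodermis, nothing is read from the second share. All 3 tested cortex markers, AT1G62510, NPF6.4 and AED3, were higher in endodermis than in stele in both comparisons. Of all tested probe sets, 8.11% and 11.1% were. AT1G62510 read 218, 123 and 179 in endodermis, 2.94, 1.44 and 2.62 in stele and 2183, 1542 and 2229.9 in cortex. NPF6.4, a nitrate transporter, read 109.99, 88.3 and 92.2, 4.75, 4.47 and 4.45 and 363, 581 and 439 in the same order. Both were thus far higher in cortex than in endodermis, and near the bottom of the scale in stele. The summed signal of the 3 cortex markers was 339 to 525 on the endodermis arrays and 16.4 to 35.7 on the stele arrays, and the part of cortex cells in the endodermis values was not tested. AT3G32030, read by a probe set that may match several genes, was among the 15 largest differences at 1132, 2078 and 1567 against 3.29, 121 and 15.6, and it was at 2426, 1815 and 1765 in cortex.

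**Figure D3:**
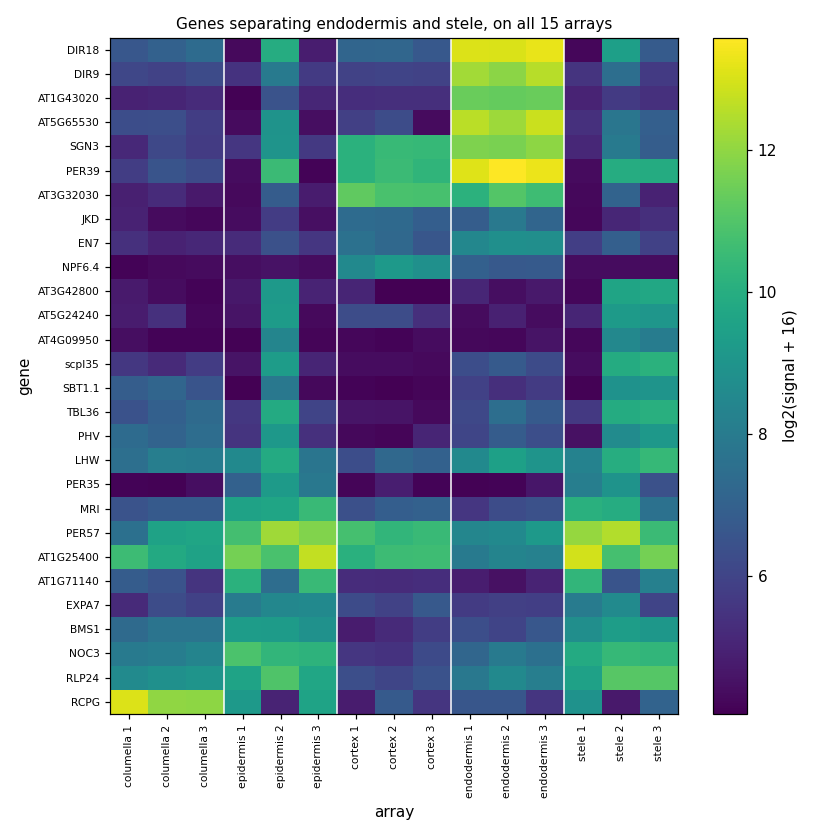
Signal of 28 genes of the text, as log2(signal + 16) in colour, on all 15 arrays grouped by population. Barrier genes are bright on the 3 endodermis arrays, with SGN3 and PER39 in cortex also above the stele arrays. Vascular genes such as PHV and TBL36 are bright on stele replicates 2 and 3 and epidermis replicate 2, and stele replicate 1 follows the other 2 epidermis arrays. PHV is also higher on the columella arrays than on the endodermis arrays.

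The NPF family of nitrate, peptide and hormone transporters was examined in a list added after the data were seen. Of 53 members 17 were tested, 7 were higher in endodermis with 6 arrays and 8 with 5, against 8.11% and 11.1% of all tested probe sets, and none was higher in stele. Under the filter at the 60th percentile 8 were tested, and 3 and 4 were called. The 7 became 4 without endodermis replicate 3, and the 8 became 5 without stele replicate 3. Summed over the 17, signal was 6335 to 7112 on the endodermis arrays and 2734 to 3557 on the stele arrays. On the cortex arrays it was 10427 to 11827, so the family sum was higher in cortex than in endodermis. NPF6.2 read 749, 764 and 1102 in endodermis and 42.8, 206 and 168 in stele, a difference of 2.71 ± 0.49 (adjusted p = 0.0118). NPF2.3, which releases nitrate toward the xylem and was listed here as a pericycle gene, read 157, 206 and 237 against 29.6, 37.7 and 23.5. It was higher in endodermis by 2.22 ± 0.28 (adjusted p = 0.00285), opposite to the side its list names. NPF3.1, a gibberellin and nitrate transporter, read 56.1, 74.1 and 142 against 19.6, 21.5 and 8.91, a difference of 1.65 ± 0.36 (adjusted p = 0.0226) that was lost without endodermis replicate 3 and without stele replicate 3. NPF2.10, the glucosinolate transporter GTR1, read 2478, 3387 and 3516 against 577, 1766 and 1161 and differed by 1.53 ± 0.40 (adjusted p = 0.037), a call lost after quantile normalization, without any 1 endodermis array and without stele replicate 3. NPF4.3 (72.5, 142 and 82.9 against 3.67, 9.30 and 5.23) and NPF1.3 (92.5, 124 and 97.3 against 3.10, 19.4 and 14.8) had calls that held without any 1 array in the 6-array comparison.

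Several of the largest endodermis differences belonged to genes for which the annotation used here gives a locus and no role. AT1G43020 read 2695, 2574 and 2698 in endodermis and 15.987, 35.5 and 25.8 in stele, a difference of 6.03 ± 0.27 (adjusted p = 0.000208). AT5G65530 read 6179.6, 4642 and 7289 against 25.014, 204 and 106. AT1G71740 read 3769.8, 1788 and 4057 against 14.7, 82.6 and 17.9, and its endodermis replicate 2 was the lowest of the 3. Outside the endodermis AT1G43020 stayed at 23.1, 24.9 and 24.5 in cortex and 15.6, 16.997 and 21.4 in columella, so it was low in those populations as well.

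The class III peroxidases, secreted enzymes that loosen or stiffen walls, had called members on both sides. Of 73 members, a list added after the data were seen, 34 were tested, and 10 were higher in endodermis and 6 in stele with 6 arrays, against 8.11% and 7.81% of all tested probe sets. With 5 arrays 12 and 10 were, against 11.1% and 17.8%. On the endodermis side the 12 became 6 with all populations in the fit, and the 10 became 6 with a pseudocount of 1. The 10 became 3 without endodermis replicate 1 or without endodermis replicate 3 and 4 without endodermis replicate 2, and the 10 on the stele side with 5 arrays became 6 without stele replicate 2. Their median difference, -0.11 and -0.09, lay near that of all tested probe sets. Beside the barrier members, PER40 read 704, 1481 and 1296 in endodermis and 7.81, 64.8 and 58.7 in stele, and PER49 read 261, 262 and 811 and 1.92, 22.8 and 28.019. On the stele side, PER69 read 795, 500.4 and 888 in endodermis and 3399, 4377 and 2939 in stele, higher in stele by 2.29 ± 0.29 (adjusted p = 0.00326). PER21 read 283, 149 and 240.4 against 903, 886 and 1274, and PER35 read 1.29, 1.69 and 9.07 against 265, 483 and 68.6. These 3 were also high in epidermis, PER35 at 114, 585 and 215 there, and PER69 was higher still in cortex, at 10764, 9974 and 12849.

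Another pair of peroxidases was high on stele replicates 2 and 3 alone among the 6 arrays. PER12 read 59.3, 34.994 and 50.6 in endodermis and 20.5, 210.1 and 284 in stele, and PER19 read 36.965, 21.7 and 26.7 and 9.53, 211 and 201. With 5 arrays both were higher in stele, by 2.04 ± 0.28 (adjusted p = 0.000866) and 2.33 ± 0.26 (adjusted p = 0.000369), and with 6 arrays neither passed. PER61 was the reverse case, at 2643, 79.8 and 53.9 on the stele arrays against 72.95, 76.7 and 43.2 in endodermis and 1521, 42.8 and 1809 in epidermis, so that its signal in stele rested on the array labelled replicate 1.

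**Figure D4:**
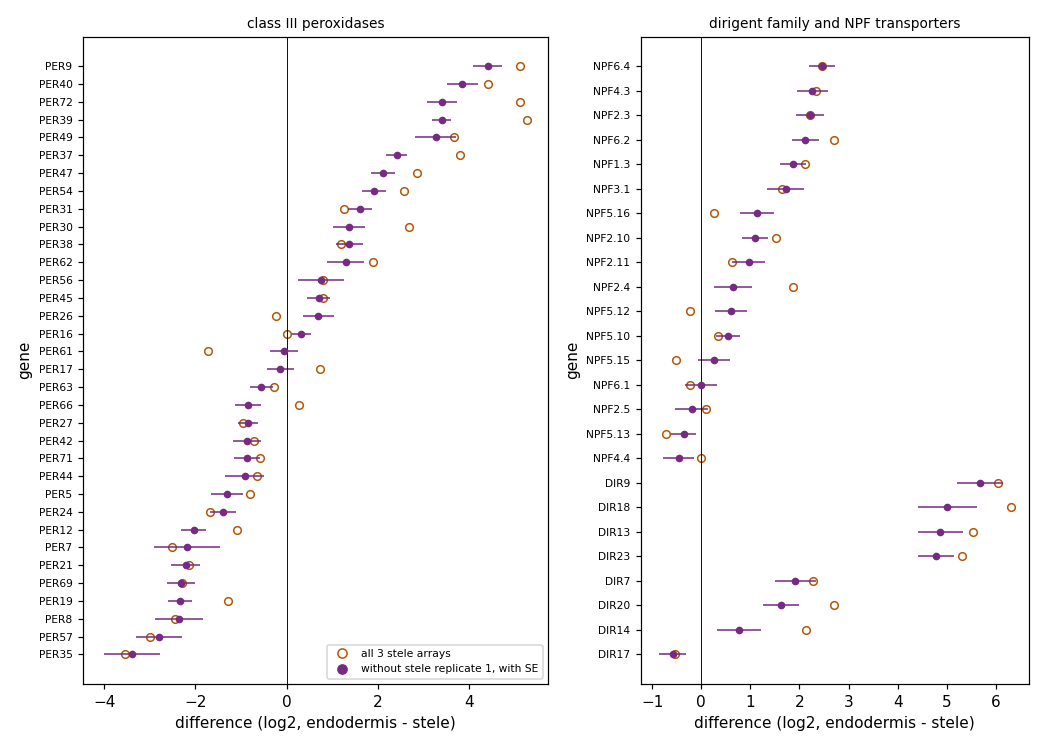
Difference between endodermis and stele (log2, endodermis minus stele) of each tested class III peroxidase (left) and each tested NPF transporter and dirigent gene (right), with all 3 stele arrays (open) and without stele replicate 1 (filled, bars are SE). With 5 arrays 12 peroxidases were called to the right of 0 and 10 to the left, while the called dirigent and NPF genes lie to the right.

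Few vascular genes could be tested. Of 26 genes listed for xylem and the HD-ZIP III family 2 were tested, PHV and LHW, and both were called higher in stele when stele replicate 1 was left out and neither with all 6 arrays, against 17.8% and 7.81% of all tested probe sets. Of 25 phloem genes 2 were tested, and 1 was called with 5 arrays. PHV was then higher in stele by 2.49 ± 0.31 (adjusted p = 0.000561) and LHW by 1.19 ± 0.31 (adjusted p = 0.0163), against 1.02 ± 1.08 (adjusted p = 0.525) and 0.55 ± 0.54 (adjusted p = 0.493) with all 6 arrays. The LHW call was lost with all populations in the fit, without stele replicate 2, without stele replicate 3 and without endodermis replicate 1, and PHV kept its call in each case. OPS, a membrane protein of early phloem, read 18.4, 5.05 and 12.8 in endodermis and 34.7, 31.2 and 49.6 in stele, a low signal whose difference passed with 5 arrays (1.01 ± 0.34 higher in stele, adjusted p = 0.0404) and not with 6. In the 5-array comparison it lost its call whenever any 1 of the 5 arrays was left out. SWEET11, a sucrose exporter of the phloem and the other tested phloem gene, read 39.9, 27.1 and 35.7 in endodermis and 48.8, 36.9 and 23.1 in stele. Its groups overlapped and it was called in neither comparison (adjusted p = 0.948 with 6 arrays and 0.74 with 5). LBD16, a lateral root factor of the pericycle, read 255, 154 and 295 against 20.2, 186 and 155 and was not called. No gene of the cytokinin list (23 genes) or the auxin transport list (12 genes) could be tested.

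Several of the named genes of largest excess in stele with 5 arrays read low on stele replicate 1, while others among the 15, such as PER35 and AT2G43590, were high on it as well. AT3G42800 read 18.1, 5.32 and 10.04 in endodermis and 2.54, 772 and 865 in stele, higher in stele by 4.97 ± 0.28 (adjusted p = 3.25e-05). AT5G24240 read 4.30, 14.6 and 4.43 against 17.1, 591 and 523, and AT4G09950 read 2.99, 2.78 and 7.29 against 2.89, 343 and 252. Outside the stele each of these was highest on epidermis replicate 2, AT3G42800 at 9.12, 556 and 16.4 across the epidermis arrays. SCPL35, a serine carboxypeptidase-like protein, read 63.6, 90.9 and 59.8 against 4.82, 951 and 1113, higher in stele by 3.60 ± 0.26 (adjusted p = 5.5e-05). SBT1.1, a secreted subtilisin-type protease, read 44.3, 24.971 and 36.4 against 1.19, 470.1 and 495, and EXPA15, an expansin that loosens walls, read 143, 231 and 186 against 164, 1369 and 1271, with stele replicate 1 inside the endodermis range.

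Among the genes of largest excess in stele with 6 arrays were genes high in epidermis too. Of the 1168 probe sets called higher in stele, epidermis replicates 1 and 3 both exceeded all 3 endodermis arrays in 90.2%. These were called with stele replicate 1 included, which resembles those epidermis arrays, so the share follows in part from how they were chosen and nothing is read from it. AT1G25400 read 234, 309 and 287 in endodermis, 7831, 1744 and 3070 in stele and 3061, 1839.5 and 6739 in epidermis. It was higher in stele by 3.59 ± 0.50 (adjusted p = 0.00421) with 6 arrays and by 3.00 ± 0.30 with 5. AT1G71140 read 11.9, 6.53 and 15.7 in endodermis, 1263, 76.6 and 278 in stele and 1125, 161 and 1443 in epidermis. AT2G43590 had the smallest spread over the stele arrays of these, at 124, 92.4 and 169 against 901, 1198 and 1692, higher in stele by 3.13 ± 0.33 (adjusted p = 0.00165).

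Of 19 root hair genes, a list added after the data were seen, 4 were tested. Of these 1, MRI, was called higher in stele in both comparisons, against 7.81% and 17.8% of all tested probe sets. EXPA7, EXPA18 and MRI were high on stele replicates 1 and 2, and PER44 on stele replicate 2 alone. EXPA7, an expansin of root hair cells, read 35.9, 41.6 and 41.2 in endodermis, 241, 378 and 49.1 in stele and 242, 342 and 369 in epidermis. EXPA18, another expansin of these cells, read 45.956, 52.4 and 62.4, 348, 291 and 53.006 and 333, 390.2 and 469 in the same order, and neither was called in either comparison. MRI, a cytoplasmic kinase of root hair and pollen tube growth, read 31.7, 60.2 and 69.2 in endodermis and 1099, 975 and 179 in stele and was called higher in stele in both comparisons, by 3.15 ± 0.64 (adjusted p = 0.0171) with 6 arrays, a call lost without endodermis replicate 1, endodermis replicate 3 or stele replicate 2. PER57 read 328, 365 and 563 against 4327, 5781 and 1481 and had 1709, 4846 and 3534 in epidermis. In EXPA7, EXPA18, MRI and PER57, the last a peroxidase outside that list, stele replicate 3 was the lowest stele array. PER44, a peroxidase of root hairs, read 597, 385 and 594 in endodermis, 560.1, 1731 and 561 in stele and 336, 2864 and 746 in epidermis. Stele replicates 1 and 3 lay within the endodermis range, and it was called in neither comparison. The 2 tested genes of the 15 on the epidermis and root hair list had a summed signal of 81.8 to 104 on the endodermis arrays, 589, 669 and 102 on the stele arrays and 575 to 838 on the epidermis arrays. RCPG, a root cap gene and the 1 tested marker of that tissue, read 461, 10.1 and 120.4 on the stele arrays, 81.1, 82.2 and 30.4 in endodermis and 8749, 4076 and 4003 in columella. The part of epidermis and root cap cells in the stele values was not tested.

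Genes of ribosome assembly were lower in endodermis than in stele as a group. Of 39 listed genes, added after the data were seen, 20 were tested, and 15 were higher in stele with 6 arrays and 20 with 5, none being higher in endodermis, against 7.81% and 17.8% of all tested probe sets. Their median difference was -1.76 and -2.07, beside -0.17 and -0.19 over all tested probe sets. BMS1, a GTPase of small subunit assembly, read 64.7, 48.8 and 84.4 in endodermis and 417, 649 and 529 in stele, higher in stele by 2.74 ± 0.29 (adjusted p = 0.00174). NOC3, which escorts the large subunit out of the nucleolus, read 130.1, 236 and 174 against 919, 1383 and 1271, higher in stele by 2.64 ± 0.30 (adjusted p = 0.00214). For these the 3 stele arrays stood together above endodermis, stele replicate 1 included. The 3 stele arrays were all above endodermis in 17 of the 20, against 23.1% of all tested probe sets, and stele replicates 2 and 3 were in 20 of 20, against 38.6%.

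In other members of the group the arrays overlapped or nearly so. NOP56-like, a core protein of the particles that methylate ribosomal RNA, read 39.9, 406 and 119 in endodermis and 792, 2009 and 928 in stele. PES, a factor of large subunit maturation, read 635, 1485 and 864 against 1417, 3806 and 3557 and passed with 5 arrays (higher in stele by 1.96 ± 0.33, adjusted p = 0.00251) but not with 6 (adjusted p = 0.0561). DIM1A, which methylates small subunit RNA, read 156, 122 and 156 against 175, 377 and 266, the smallest difference of the 20. Endodermis replicate 2 was the highest endodermis array for most members, and stele replicate 2 exceeded stele replicate 3 in 20 of 20. The count of 15 with all 6 arrays fell to 9 without the filter on low values, to 2 without endodermis replicate 1, to 2 without endodermis replicate 3, to 6 without stele replicate 2 and to 5 without stele replicate 3, and with 5 arrays it stayed between 14 and 20. Summed over the 20 genes, signal was 4805, 10854 and 5611 on the endodermis arrays, 14859, 32996 and 26986 on the stele arrays and 16885 to 30244 on the epidermis arrays. On the cortex arrays the sum was 1221, 1098 and 1228, below every endodermis array. On the columella arrays it was 6940, 7824 and 8586, within the endodermis range. A low sum was thus not particular to the endodermis.

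**Figure D5:**
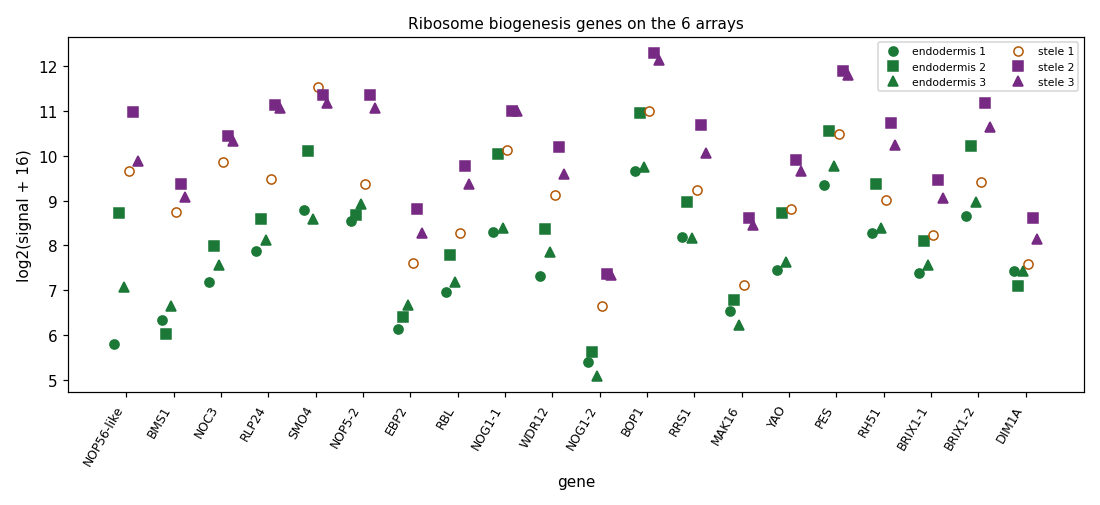
Signal of the 20 tested ribosome biogenesis genes, as log2(signal + 16), on each endodermis array (green) and each stele array (stele replicate 1 open, replicates 2 and 3 purple). Stele replicates 2 and 3 lie above all endodermis points in all 20 genes, and stele replicate 1 lies between or above the endodermis points.

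Plastid-encoded genes and a mitochondrial list were examined, both added after the data were seen. Of 65 tested plastid-encoded genes, 16 were higher in stele with 6 arrays and 29 with 5, against 7.81% and 17.8% of all tested probe sets, and none was higher in endodermis. Their median signal was 238, 98.4 and 276 on the endodermis arrays and 277, 638 and 378 on the stele arrays, so stele replicate 2 stood above the rest and endodermis replicate 2 below. The count of 16 became 1, 8 and 3 without endodermis replicates 1, 2 and 3 and 2 and 4 without stele replicates 2 and 3, and the 29 became 13 without stele replicate 2. The plastid ribosomal gene rpl22 read 193, 75.1 and 231 in endodermis and 294, 1564 and 1396 in stele. The mitochondrial list took loci of the mitochondrial genome and all tested named loci beginning with AT2G07, a prefix of nuclear chromosome 2. Its members, called mitochondrial genes here, are therefore not all known to be encoded in the mitochondrion. Of the 23, 5 were higher in stele with 6 arrays and 14 with 5, and 1 was higher in endodermis. The 6-array call of the last was lost without endodermis replicate 1 or 3 and without stele replicate 2 or 3. The 6-array count on the stele side was 1 to 2 without any 1 array other than stele replicate 1. With 5 arrays it was 5 without stele replicate 2.

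The TBL, IQD and UGT families, again lists added after the data were seen, had called members on both sides. Of 17 tested TBL genes, whose proteins acetylate wall polysaccharides, 4 were higher in endodermis and 1 in stele with 6 arrays, against 8.11% and 7.81% of all tested probe sets, and 7 and 3 with 5, against 11.1% and 17.8%. The stele counts were thus near the background, and the 7 became 4 without stele replicate 2. TBL30 read 1836, 1535 and 1769.9 in endodermis and 16.4, 118 and 44.4 in stele, and TBL19 read 879, 944 and 985 against 2.88, 43.017 and 35.1. TBL36 was on the opposite side at 53.2, 166 and 93.3 against 34.1, 959.5 and 1068, higher in stele by 3.21 ± 0.38 (adjusted p = 0.000449) with 5 arrays. Of 12 IQD genes, which encode calmodulin-binding scaffold proteins, 3 were higher in endodermis in both comparisons, and 4 were higher in stele with 5 arrays and none with 6. IQD19 read 342, 563 and 414 in endodermis and 171, 115 and 122 in stele, whereas IQD33 read 82.5, 55.9 and 50.9 and 38.7, 312 and 393 and IQD26 read 20.5, 60.3 and 40.3 and 33.5, 220.2 and 226. In this family the stele side again stood on stele replicates 2 and 3. Of 35 glycosyltransferases of the UGT family, 9 were higher in endodermis and 1, UGT73D1 (73.7, 42.9 and 95.5 against 241, 529.8 and 250.1), was higher in stele with 6 arrays, and 12 and 1 with 5. Without endodermis replicate 1 or endodermis replicate 3 the 9 became 5, and the 3 IQD genes of the 6-array comparison became 1 and 0.

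Sulfur genes were examined because all plants had been held without sulfur. Of 19 listed genes 4 were tested and 1 was called higher in endodermis in both comparisons, against 8.11% and 11.1% of all tested probe sets. APS4, an ATP sulfurylase of sulfate assimilation, read 2795, 2237 and 2734 in endodermis and 349.9, 601 and 280.1 in stele, higher in endodermis by 2.68 ± 0.32 (adjusted p = 0.00234) with 6 arrays and by 2.60 ± 0.32 with 5. In cortex it read 3409.5, 3582 and 2865, at or above the endodermis arrays. BGLU28, a glucosidase that rises in sulfur-starved plants, read 3238, 3609 and 4195 against 466, 2921 and 414, and with stele replicate 2 close to endodermis its difference of 2.12 ± 0.67 did not pass (adjusted p = 0.063). APS3, another ATP sulfurylase, read 829, 1089.8 and 735 against 937, 1111 and 1293 and was not called. Whether these genes responded to the medium cannot be read from these arrays.

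The pSCR::GFP sort also held quiescent center cells, and the stele holds dividing cells. AGL42, a quiescent center gene, read 48.978, 35.3 and 50.2 in endodermis and 0.786, 37.6 and 1.32 in stele, with stele replicate 2 inside the endodermis range, and was not called. BBM, a stem cell factor, read 38.3, 102 and 53.3 against 21.2, 218 and 222 and was higher in stele with 5 arrays by 1.63 ± 0.34 (adjusted p = 0.00589). That call was lost with all populations in the fit (limma adjusted p = 0.147). AUR1, a mitotic kinase, read 84.7, 198 and 98.6 against 129, 289 and 334 and was higher in stele with 5 arrays by 1.27 ± 0.34 (adjusted p = 0.0175), a call lost without endodermis replicate 1, endodermis replicate 3, stele replicate 2 or stele replicate 3. Its relative AUR2 read 347, 469 and 308 against 269, 282 and 245 and was not called, so the 2 tested mitosis genes did not move together.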

How the data were processed

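Biotin-labelled RNA of the sorted cells came from a two-cycle amplification, per the labels' protocols. The deposited intensity is a linear signal for each of 22810 probe sets. Per the submitters' processing notes it was computed by MAS5. The scaling target and the genome build of the array design are not given in the sources used here, and coordinates are left out. The steps that follow were computed for this text, with limma 3.58.1 in R 4.3.3 for the tests and pandas 2.3.3, numpy 2.4.6 and matplotlib 3.10.9 in Python 3.11.15 for tables and plots. Values were taken as log2(signal + 16) after removal of 64 control probe sets. A probe set was tested when it exceeded the 40th percentile of its array (signal 28.6 to 41.3) on at least 2 of the 6 arrays, which left 14958. A member that passed through the group where it is high could differ for that reason alone, so counts over tested members are descriptions.

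Endodermis and stele were compared by lmFit and eBayes, the prior variance following mean signal, with Benjamini-Hochberg adjustment over all tested probe sets. A call needed an adjusted p under 0.05 and a difference of at least 1 log2 in size. The computation was tested on simulated data. Precision is limited by having 3 arrays per population, and detection calls were not used.

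Of the probe sets, 13513 had 1 gene symbol in the platform annotation, 503 had several and 8794 are unnamed here, and 13436 were matched to a locus of TAIR10.1. Where probe sets shared a gene, that of highest mean stood for it. The 15 lists by locus named 231 genes. A named probe set was found for 39 of them, and 34 were tested. Members and lists were chosen with earlier results of these data known. Lists by words of a symbol gave the same calls for the peroxidase, dirigent and NPF families. That for glucosyltransferases gave the same counts of calls as the UGT family. Those for expansins and cytochrome P450 had 15 tested genes each. Of the expansins, 1 was higher in endodermis and 1 in stele with 6 arrays, and 1 and 2 with 5. Of the cytochrome P450 genes, 4 and 2 were in both comparisons. Of all tested probe sets, 8.11% and 7.81% were with 6 arrays and 11.1% and 17.8% with 5. The other word lists matched few genes or proteins of other families and were not used. Genes are named by a rule: per direction the 15 of largest difference called in both comparisons without overlap, for stele also the 15 of largest difference without stele replicate 1, any tested list member and up to 6 called members of a family in each direction. The families added after the data were seen, the organelle genes and the examples drawn from them were chosen after their values were seen.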

Additional observations from a re-analysis of the deposited data

How the results depend on the processing

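The counts of probe sets called were recomputed with quantile normalization, a pseudocount of 1 or 64, no filter, a filter at the 60th percentile, no variance trend, array weights, all populations in the fit, the replicate number as a block, and without each array in turn. With 6 arrays, array weights gave 1880 probe sets higher in endodermis and 2894 higher in stele, and a pseudocount of 64 gave 759 higher in stele. Leaving out 1 array gave 431 to 1653 higher in endodermis and 166 to 2665 higher in stele, the highest of both without stele replicate 1. With 5 arrays, a pseudocount of 64 gave 1602 higher in stele, and leaving out 1 array gave 1280 to 1885 higher in endodermis and 1609 to 3044 higher in stele. The other alternatives moved no count over all probe sets by more than 1.5 times, and the causes were not tested. Counts within lists moved more. With all populations in the 5-array fit, Casparian strip genes went from 8 to 5 and class III peroxidases higher in endodermis from 12 to 6, and with 6 arrays plastid genes went from 16 to 25 and mitochondrial genes from 5 to 10. With 6 arrays, peroxidases higher in endodermis went from 10 to 6 with a pseudocount of 1, ribosome genes from 15 to 9 and mitochondrial genes from 5 to 3 without the filter, and mitochondrial genes from 5 to 2 with a pseudocount of 64. The filter at the 60th percentile left 8 NPF genes, of which 3 were called with 6 arrays and 4 with 5, and 11 mitochondrial genes, of which 2 and 7 were called. Array weights gave 10 peroxidases, 4 TBL, 4 IQD and 15 mitochondrial genes higher in stele with 6 arrays. Deviations of same-numbered arrays correlated at 0.119, 0.073 and 0.062, and those of differently numbered arrays at -0.154 to 0.05. With deviations taken from means of 3 arrays, these values cannot decide whether same-numbered samples share more than a number. With the replicate block the counts were 1261 and 1375 with 6 arrays and 1671 and 2628 with 5, 2 IQD and 8 mitochondrial genes were higher in stele with 6 arrays, and among the named genes 12 gained a call and 0 lost one. With 5 arrays LHW lost a call and BGLU28, EXPA7 and PER44 gained one. Among the named genes with all 6 arrays, 1531 of 1743 recomputed values kept their direction and their side of the threshold, 119 lost a call, 88 gained one and 5 changed sign. With 5 arrays these were 1539, 68, 13 and 6 of 1626. RCPG changed sign to 0.353 with 6 arrays without stele replicate 1 (-1.743 without stele replicate 2), and to -0.84 with 5 arrays without stele replicate 2. In the 5-array comparison EXPA18 came to 0.006 without stele replicate 2 and to -2.146 without stele replicate 3. PER61 came to 0.254 after quantile normalization, 0.151 without endodermis replicate 3, 0.173 without stele replicate 2 and -0.282 without stele replicate 3. SWEET11, near 0 in each comparison, came to 0.118 after quantile normalization, 0.223 with array weights, 0.072 without endodermis replicate 2 and 0.136 without stele replicate 1 with 6 arrays (-0.229 without stele replicate 3), and to -0.083 without stele replicate 3 with 5 (0.354 without stele replicate 2). No value of changed sign passed the test.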
